A study of Homo sapiens with 4 samples.

Results

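The transcripts of 8 enzymes of monoamine metabolism were followed through the knockdown of MAOA in a pair of related prostate cancer lines. The 8 were found by gene symbol in both deposited tables, among 25343 genes, and comprise the silenced gene MAOA, its paralogue MAOB, the decarboxylase DDC, the aldehyde dehydrogenases ALDH2 and ALDH3A2, the aldehyde reductase AKR1A1, and the copper amine oxidases AOC2 and AOC3. There were 4 groups of 1 library each: C4-2B ENZR cells stably expressing a lentiviral hairpin against the MAOA coding region (shMAOA), C4-2B ENZR cells with a non-targeting hairpin (shCon), LNCaP cells with shMAOA, and LNCaP cells with shCon. C4-2B ENZR is an enzalutamide-resistant human prostate cancer line that was kept in 20 µM of this antiandrogen, LNCaP is a human androgen-responsive line grown without it, and all cells had passed lentiviral infection, antibiotic selection and culture in 10% fetal bovine serum. The knockdown libraries carry different short labels in the lines (shA2 in C4-2B ENZR and shMAOH in LNCaP), and the labels do not say whether the same hairpin was used in both, whether cells were cloned after selection, or whether any library has a replicate culture.

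Monoamines such as dopamine, noradrenaline and serotonin are made by decarboxylation of hydroxylated aromatic amino acids and are broken down by oxidation of the amine to an aldehyde. MAOA and MAOB are flavoenzymes of the outer mitochondrial membrane that carry out this oxidation and release hydrogen peroxide and ammonia, with serotonin and noradrenaline preferred by MAOA and phenylethylamine by MAOB. The aldehydes are then oxidised to acids by aldehyde dehydrogenases or reduced to alcohols by aldo-keto reductases, while sulfotransferases act on the amines by conjugation.

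MAOA and MAOB lie next to each other on the X chromosome and point towards each other, so that their promoters are at the outer ends of the pair. Both promoters are known for clustered GC boxes, the binding sites of SP1 and related KLF factors. The 250 bases before each annotated start are shown, from RefSeq on GRCh38.p14 and read 5′ to 3′ on the gene's strand, because these sequences and the levels of the genes can be set side by side. For MAOA this is chrX:43656049-43656298 on the plus strand and for MAOB chrX:43882451-43882700 on the minus strand. Capitals mark the letters GGGCGG or their reverse complement CCGCCC, and matches may overlap.
MAOA: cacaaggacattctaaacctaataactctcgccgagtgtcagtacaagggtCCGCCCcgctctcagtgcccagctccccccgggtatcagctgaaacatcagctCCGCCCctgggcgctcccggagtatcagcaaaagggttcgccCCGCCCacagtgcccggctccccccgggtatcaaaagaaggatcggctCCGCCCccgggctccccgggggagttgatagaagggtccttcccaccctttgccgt
MAOB: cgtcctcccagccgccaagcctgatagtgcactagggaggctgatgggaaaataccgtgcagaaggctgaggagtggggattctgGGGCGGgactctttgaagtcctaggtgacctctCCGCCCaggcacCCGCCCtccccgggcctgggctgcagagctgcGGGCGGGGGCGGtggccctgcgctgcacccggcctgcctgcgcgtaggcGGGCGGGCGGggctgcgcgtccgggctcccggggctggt
The MAOA window held 4 matches and the MAOB window 7. At least 1 match was found in 42.6% of the 35116 promoter windows of this length, at least 4 in 7.63% and at least 7 in 1.12%. DDC has 2 annotated starts on chromosome 7, an upstream window at chr7:50565406-50565655 and a downstream window at chr7:50561072-50561321, both on the minus strand. They are printed for contrast, as neither holds a match.
DDC upstream: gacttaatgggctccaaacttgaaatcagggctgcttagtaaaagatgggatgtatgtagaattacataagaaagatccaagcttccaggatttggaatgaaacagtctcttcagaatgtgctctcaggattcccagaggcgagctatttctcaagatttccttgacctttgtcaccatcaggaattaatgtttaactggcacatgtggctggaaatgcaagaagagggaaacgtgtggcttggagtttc
DDC downstream: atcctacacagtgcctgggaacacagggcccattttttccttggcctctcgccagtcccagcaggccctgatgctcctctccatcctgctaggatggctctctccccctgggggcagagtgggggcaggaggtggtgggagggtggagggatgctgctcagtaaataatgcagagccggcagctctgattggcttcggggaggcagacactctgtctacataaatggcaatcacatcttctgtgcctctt
The GC content was 63.2% for MAOA, 72% for MAOB, and 42.4% and 58% for the upstream and downstream DDC windows. None of these 4 windows held AGAACA (a half-site of steroid hormone receptors, in 12.4% of windows), TGATGNAA (the core of the amino acid response element, in 3.14%) or CACGTG (an E-box, in 6.34%), each searched on both strands. Promoter windows were matched for 6 of the 8 genes.

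Values are CPM (read counts relative to library size) after the authors' TMM scaling, which was done separately for each line, and whole reads could be recovered from them. Depth was 23679869 and 23479051 reads for shMAOA and shCon in C4-2B ENZR and 52012696 and 52550452 reads for those of LNCaP. Prostate luminal transcripts were abundant in all libraries (8 markers summed to 2464 and 2421 CPM in shMAOA and shCon of C4-2B ENZR, and to 7494 and 7011 CPM in those of LNCaP), with FOLH1 high throughout and KLK3, the gene of prostate-specific antigen, at 6.34 and 3.72 CPM in C4-2B ENZR. The basal markers KRT5 and TP63 and the leukocyte marker PTPRC were at or below 0.202 CPM. The collagen gene COL1A1, listed as a fibroblast marker, had 52.9 and 44.4 CPM in shMAOA and shCon of C4-2B ENZR and 60.9 and 54.2 CPM in those of LNCaP, while the other fibroblast markers COL3A1 and DCN were at or below 0.793 CPM, and the part of COL1A1-expressing cells in the results was not tested. In LNCaP the median log2 ratio of shMAOA over shCon was 0.13 among genes with a mean of at least 10 CPM, against -0.01 in C4-2B ENZR, so LNCaP ratios are also given after subtraction of this median. Tables of the lines were normalised separately and the sample descriptions end in a lane-like suffix that the libraries of a line share and that differs between lines, so line and sequencing batch cannot be told apart.

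**Figure D1:**
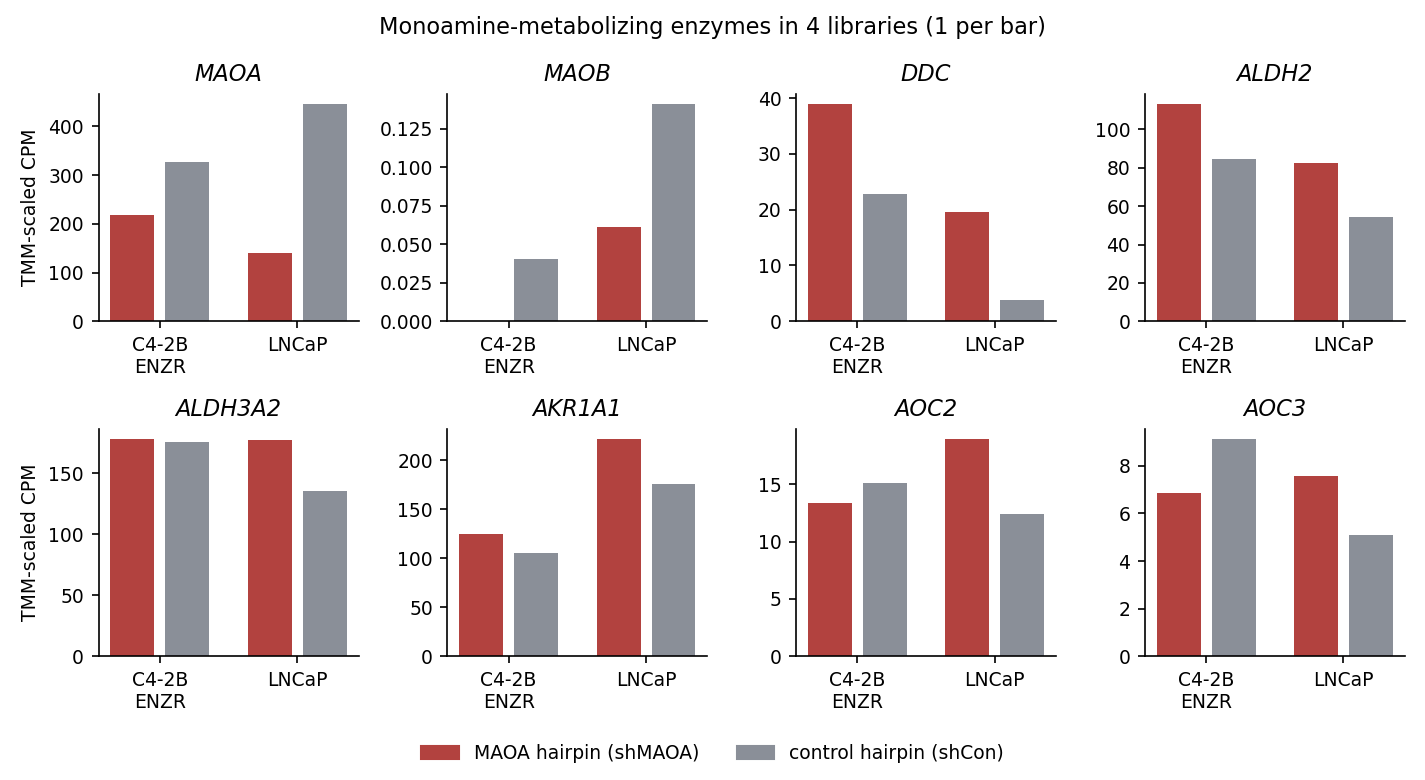
TMM-scaled CPM of the 8 enzymes (vertical axes, starting at 0 and differing between panels) in the 4 libraries, 1 library per bar, with shMAOA left of shCon for each line. MAOA is lower and DDC and ALDH2 are higher in the shMAOA library of each line, AOC2 and AOC3 differ in direction between the lines, and MAOB stays below 0.15 CPM.

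MAOA, the targeted gene, was lower in the knockdown library of each line, and by more in LNCaP. In C4-2B ENZR it had 219 CPM (5375 reads) in shMAOA cells, against 327 CPM (8097 reads) in shCon cells. In LNCaP it had 140 CPM (6818 reads) in shMAOA cells, against 445 CPM (25281 reads) in shCon cells. The transcript left in the knockdown was 66.8% of control in C4-2B ENZR (95% counting interval of the fold 0.645 to 0.691) and 31.3% in LNCaP (0.305 to 0.322). These exact conditional intervals cover counting error only. In bulk RNA, less transcript per cell and fewer silenced cells cannot be told apart.

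On a common scale that ignores the separate scaling of the tables, recovered reads as RPM of a library's total without TMM, MAOA was at 131 in LNCaP shMAOA (exact 95% Poisson interval 128 to 134), 227 in C4-2B ENZR shMAOA (221 to 233), 345 in C4-2B ENZR shCon (337 to 352) and 481 in LNCaP shCon (475 to 487). The libraries with the most and the least MAOA were thus both LNCaP, and no intervals overlapped. With 1 library per group there is no spread over samples to set against these steps. With the deposited scaling, the fold in LNCaP was 0.469 times that in C4-2B ENZR (Wald 95% counting interval 0.449 to 0.490). The interval does not cover the choice of scaling. With libraries rescaled to the same sum, the log2 ratio was -1.87 in LNCaP and -0.60 in C4-2B ENZR, against -1.67 and -0.58 as deposited. Whether cultures of the lines differ in this way could not be tested.

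Among 13810 genes with a mean of at least 1 CPM in C4-2B ENZR, MAOA had the 139th lowest log2 ratio (-0.58, with a pseudocount of 1 as in all log2 ratios here). Among 13787 such genes in LNCaP it had the 4th lowest (-1.67, and -1.80 relative to the median). MAOA was 2-fold lower in LNCaP alone, where 0.254% of genes were 2-fold lower, and in C4-2B ENZR, where 0.152% were, it did not reach that fold.

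In the joint test of the lines MAOA fell, with a mean log2 ratio of -1.12 (SE 0.14, limma adjusted p = 4.44e-12; lower in 2 of 2 lines). That test takes the 2 within-line ratios as replicates, and its SE is pooled over genes because 1 residual degree of freedom is joined to 276 prior degrees of freedom. The adjusted p ranged from 2.33e-14 to 0.364 over 10 other fits that kept line as a term, and the highest value, from DESeq2, did not pass. Of 13114 genes tested, 4.22% rose and 1.49% fell. That excess of rising genes depended on the scaling. After subtraction of the median of each line 578 rose and 543 fell, and with libraries rescaled to the same sum 351 rose and 653 fell. A shared direction alone was common, as 5245 of the genes tested were higher and 3037 lower in both lines, without subtraction of the median. Of the 8 enzymes 7 were expressed enough to be tested, of which 2 rose (DDC and ALDH2), 1 fell (MAOA) and 4 did not pass.

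None of the 5497 distinct 50-base words of the MAOA transcripts in GENCODE 29 occurred in a transcript of another gene, so the single 50-base reads of MAOA have no identical source elsewhere in that annotation. The same held for the 2889 words of MAOB and the 2656 words of AOC2.

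MAOB, the other monoamine oxidase, was at the limit of detection. It had 0 reads in shMAOA and 1 read in shCon cells of C4-2B ENZR, and 3 reads in shMAOA and 8 reads in shCon cells of LNCaP. The limit that a count of 0 allows, taken as 3 reads (a one-sided 95% limit, for counting error only), was 0.122 CPM in C4-2B ENZR shMAOA. In LNCaP the fold was 0.436 with a counting interval of 0.0744 to 1.81. The interval includes equality, so no change was detected at this depth, while a rise of more than 1.81 lies outside it. All 4 libraries thus contained MAOA at over 130 RPM and MAOB at under 0.2 RPM, while the MAOB window printed above holds more GGGCGG matches than that of MAOA. Of the 2 further genes on the X chromosome next to this pair, NDP had 4 to 11 reads in each library. EFHC2 had 2.28 and 1.01 CPM in shMAOA and shCon of C4-2B ENZR and 1.39 and 1.02 CPM in those of LNCaP (limma adjusted p = 0.128).

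DDC, the pyridoxal phosphate enzyme that decarboxylates L-DOPA to dopamine and 5-hydroxytryptophan to serotonin, was higher in the knockdown of each line. In C4-2B ENZR it had 38.9 CPM (956 reads) in shMAOA cells, against 22.7 CPM (562 reads) in shCon cells. In LNCaP it had 19.7 CPM (961 reads) in shMAOA cells, against 3.88 CPM (220 reads) in shCon cells. The higher value of each pair belonged to the knockdown, and LNCaP shCon stood lowest of the 4 libraries also on the common scale (4.19 RPM, followed by 18.5 in LNCaP shMAOA, 23.9 in C4-2B ENZR shCon and 40.4 in C4-2B ENZR shMAOA).

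The fold of DDC without a pseudocount was 5.07 in LNCaP (counting interval 4.38 to 5.90) and 1.71 in C4-2B ENZR (1.54 to 1.90). The fold in LNCaP was 2.97 times that in C4-2B ENZR (Wald counting interval 2.48 to 3.55), a difference that has no replicate check. Its log2 ratio of 2.08 was the 4th highest of the genes expressed in LNCaP (1.95 relative to the median), where 0.58% of genes were 2-fold higher, and its 0.75 was the 98th highest in C4-2B ENZR, where 0.29% were 2-fold higher. Over both lines DDC rose by 1.42 on the log2 scale (SE 0.15, limma adjusted p = 5.85e-15, higher in 2 of 2 lines). As for MAOA, this SE rests mainly on a variance shared by genes, not on the distance between the ratios of the lines. In the 10 other fits with line as a term, the adjusted p lay between 3.42e-20 and 0.0129.

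The counting was not stated to use strand, and DDC-AS1, an antisense gene over an exon of DDC, shares 67 of the 3361 words of 50 bases (1.99%), so reads from that stretch cannot be assigned to either gene. Enzymes on either side of DDC in synthesis were near or below detection. TH and TPH2, the hydroxylases that supply L-DOPA and 5-hydroxytryptophan in catecholamine and serotonin neurons, had at most 1 read in any library. TPH1, the peripheral tryptophan hydroxylase, had 3 reads in C4-2B ENZR shMAOA and 0 in the other libraries. DBH and PNMT, which turn dopamine into noradrenaline and noradrenaline into adrenaline, had at most 1 read, and of the 7 other synthesis genes listed 6 had at most 3 reads in every library and none was expressed enough to be tested.

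**Figure D2:**
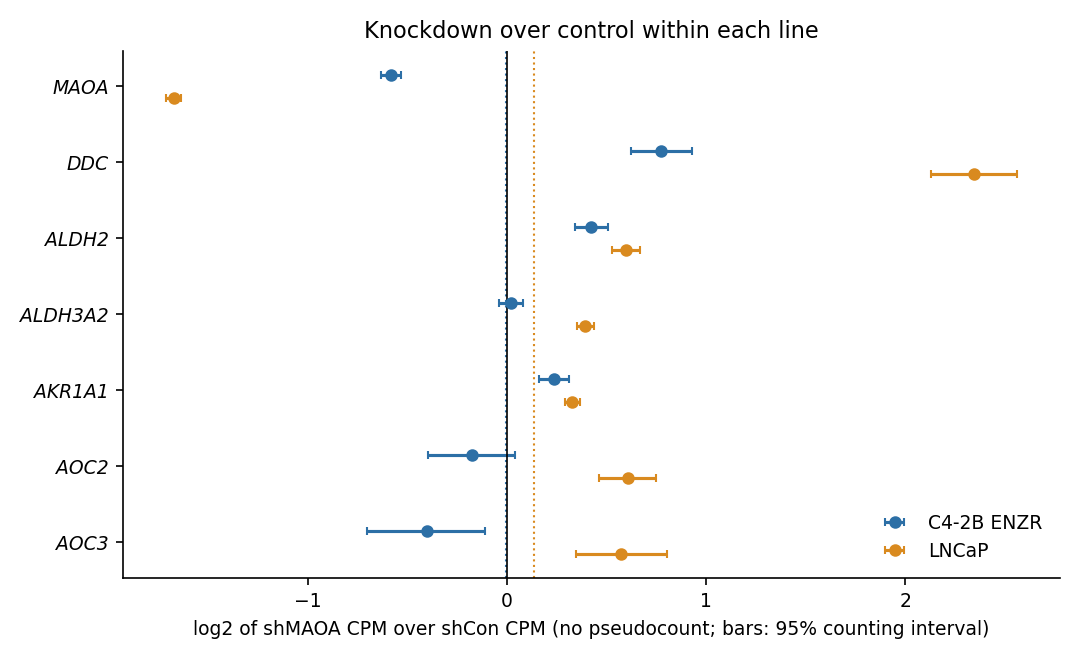
Log2 fold of shMAOA over shCon CPM without a pseudocount (horizontal axis) for the 7 enzymes with reads in every library, C4-2B ENZR above LNCaP for each gene; bars are exact 95% counting intervals, and dotted lines are the median log2 ratio of genes with at least 10 CPM in each line. MAOA and DDC in LNCaP lie farthest from 0, and the C4-2B ENZR intervals of ALDH3A2 and AOC2 cross 0.

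Aldehyde removal was represented by 3 abundant enzymes, of which ALDH2 changed. ALDH2 is the mitochondrial aldehyde dehydrogenase that clears acetaldehyde and the aldehydes formed from dopamine and other monoamines. In C4-2B ENZR it had 113 CPM (2781 reads) in shMAOA cells, against 84.4 CPM (2088 reads) in shCon cells. In LNCaP it had 82.4 CPM (4024 reads) in shMAOA cells, against 54.4 CPM (3090 reads) in shCon cells. The knockdown library was the higher of the pair in each line. The folds were 1.51 in LNCaP (counting interval 1.44 to 1.59) and 1.34 in C4-2B ENZR (1.26 to 1.42). The first was 1.13 times the second (Wald counting interval 1.05 to 1.22), with no replicate check. That excess depended on the scaling. Relative to the median of each line, the log2 ratio was 0.45 in LNCaP and 0.42 in C4-2B ENZR. With libraries rescaled to the same sum it was 0.39 in LNCaP and 0.40 in C4-2B ENZR.

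Over both lines ALDH2 rose by 0.50 on the log2 scale (SE 0.12, limma adjusted p = 0.00315; higher in 2 of 2 lines), with adjusted p from 0.00229 to 0.0481 in the 10 other fits with line as a term. The log2 ratio in LNCaP was 0.59, and 0.45 relative to the median. In GENCODE 29 the gene AC002996.1 overlaps exons of ALDH2 on the same strand, and 9.45% of the 50-base words of ALDH2 occur in transcripts of another gene.

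ALDH3A2, the microsomal fatty aldehyde dehydrogenase that is mutated in Sjögren-Larsson syndrome, had 178 CPM in shMAOA and 175 CPM in shCon cells of C4-2B ENZR, and 178 CPM in shMAOA and 135 CPM in shCon cells of LNCaP. The pair in C4-2B ENZR differed by less than counting error (fold 1.01, interval 0.972 to 1.06), and the fold in LNCaP was 1.31 (1.27 to 1.35). It did not pass over both lines (log2 0.21, SE 0.13, limma adjusted p = 0.390), and its log2 ratio in LNCaP was 0.39, or 0.26 relative to the median.

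AKR1A1, the aldehyde reductase that turns monoamine aldehydes into alcohols, had 124 CPM in shMAOA and 106 CPM in shCon cells of C4-2B ENZR, and 221 CPM in shMAOA and 176 CPM in shCon cells of LNCaP. Both counting intervals lay above a fold of 1 (1.12 to 1.24 in C4-2B ENZR and 1.22 to 1.29 in LNCaP). It was higher in 2 of 2 lines, as were 5245 of 13114 genes tested (without subtraction of the median), but did not pass (log2 0.28, SE 0.13, limma adjusted p = 0.184). In LNCaP its log2 ratio was 0.33, or 0.19 relative to the median.

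The copper amine oxidases lie next to each other on chromosome 17 and had opposite directions in the lines. AOC2 encodes a retinal amine oxidase that accepts phenylethylamine and tryptamine. AOC3 encodes the semicarbazide-sensitive amine oxidase, also called vascular adhesion protein, of endothelium, smooth muscle and adipocytes. AOC2 had 13.3 CPM (328 reads) in shMAOA and 15.1 CPM (373 reads) in shCon cells of C4-2B ENZR, and 18.9 CPM (923 reads) in shMAOA and 12.4 CPM (705 reads) in shCon cells of LNCaP. AOC3 had 6.87 CPM (169 reads) in shMAOA and 9.10 CPM (225 reads) in shCon cells of C4-2B ENZR, and 7.55 CPM (369 reads) in shMAOA and 5.07 CPM (288 reads) in shCon cells of LNCaP. Each gene was thus lower in the knockdown of C4-2B ENZR and higher in that of LNCaP.

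AOC2 had a fold of 1.52 in LNCaP (counting interval 1.38 to 1.68) and one of 0.884 in C4-2B ENZR, where the interval of 0.760 to 1.03 includes equality. AOC3 had a fold of 1.49 in LNCaP (1.27 to 1.74) and one of 0.755 in C4-2B ENZR (0.615 to 0.926). Relative to the median, the LNCaP log2 ratios were 0.43 for AOC2 and 0.36 for AOC3, so both remained above 0 after centring. Of all 13114 genes tested, 6.51% had counting intervals that excluded equality on both sides as those of AOC3 did, lower in C4-2B ENZR and higher in LNCaP. Neither passed over both lines (limma adjusted p = 0.511 for AOC2 and 0.884 for AOC3). The endothelial marker PECAM1 had 24 reads in shMAOA and 41 reads in shCon cells of C4-2B ENZR and 65 and 78 reads in those of LNCaP, and its part in the AOC3 values was not tested. Of the 50-base words of AOC3, 14.6% occur in the pseudogene AOC4P, so part of its reads is uncertain.

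**Figure D3:**
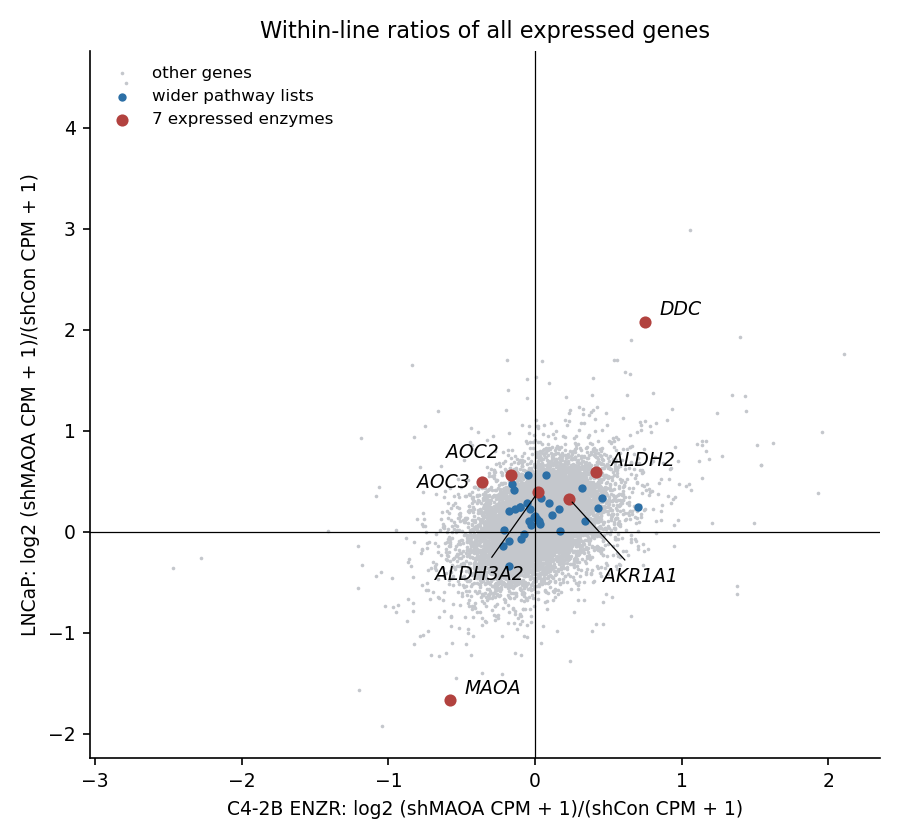
Log2 ratio of shMAOA over shCon, with a pseudocount of 1, in C4-2B ENZR (horizontal axis) and LNCaP (vertical axis) for 13114 genes with a mean of at least 1 CPM in both lines; red points are 7 of the 8 enzymes (MAOB is below this level), and blue points are 33 genes of the wider pathway lists. MAOA and DDC lie at the lower left and upper right edges of the cloud, while AOC2, AOC3 and most pathway genes lie inside it.

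The pattern of change of MAOA had no close match. Its LNCaP ratio was the 4th lowest, and genes are few at that edge of the cloud, so distances there tend to be large. The pattern was taken as the pair of within-line log2 ratios. Likeness was the Euclidean distance between pairs among 10711 genes with a mean of at least 5 CPM in each line. The nearest genes to MAOA (-0.58 in C4-2B ENZR and -1.67 in LNCaP) were S100A10 (distance 0.47), BIRC5 (0.52), ZNF618 (0.57), MDC1 (0.63) and PPP1R10 (0.64). Of these ZNF618, a zinc finger gene, had the C4-2B ENZR ratio closest to that of MAOA (-0.57, with -1.10 in LNCaP), while PPP1R10 was at -0.14 in C4-2B ENZR.

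The nearest genes to DDC were the readthrough gene BLOC1S5-TXNDC5 (distance 0.20), the stress transcription factor gene DDIT3 (0.42), the p21 gene CDKN1A (0.51), CAMK2N1 (0.67) and the proteoglycan gene SDC4 (0.71, with log2 ratios of 0.81 in C4-2B ENZR and 1.38 in LNCaP). ALDH2 by contrast lay in a dense part of the cloud, and its nearest 5 genes were within 0.03, among them the adaptor gene GRB10, ZDBF2, the carboxypeptidase gene CPD and the kinase gene MAPK11. All these genes were measured in the same 4 libraries, and 2 ratios per gene describe a pattern only coarsely.

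No further listed gene passed. Of 60 further genes of monoamine synthesis, conjugation, aldehyde removal, other amine and polyamine oxidation, transport, flavin supply and MAOA regulation, among them also 2 neighbours of MAOA on the X chromosome, 33 were expressed enough in both lines to be tested. None of the 33 passed in limma (5.71% of all genes did), in edgeR with the deposited scaling (6.02%) or with recomputed TMM (2.31%), or in DESeq2 (1.69%), and 7 of the 33 had an unadjusted p under 0.05 in limma (19.2% of all genes did), 7 and 6 in edgeR with the deposited and the recomputed scaling (19.4% and 19.7%), and 2 in DESeq2 (11.1%). The 33 genes had a median log2 ratio of -0.02 in C4-2B ENZR, beside 0.00 for all genes tested, and of 0.21 in LNCaP, beside 0.11.

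**Figure D4:**
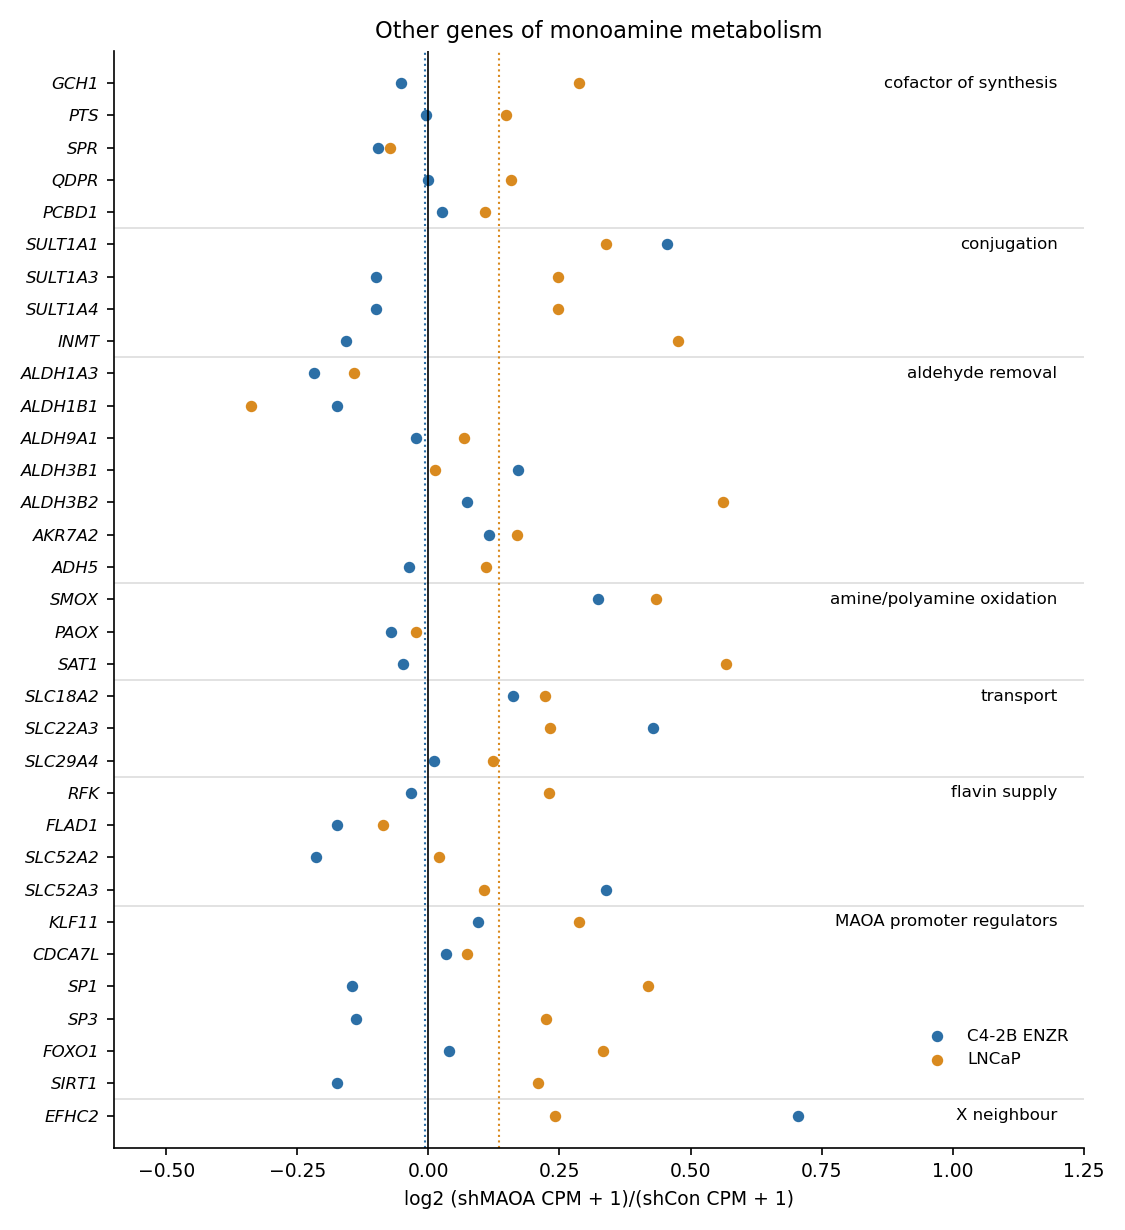
Log2 ratio of shMAOA over shCon, with a pseudocount of 1 (horizontal axis), in C4-2B ENZR (blue) and LNCaP (orange) for the 33 tested genes of the wider pathway, grouped by role; dotted lines are the median log2 ratio of genes with at least 10 CPM in each line. ALDH1A3 and ALDH1B1 lie left of 0 in both lines, SULT1A1, SLC22A3 and SMOX lie right of 0 in both, and SP1, SP3 and SIRT1 lie left of 0 in C4-2B ENZR and right of 0 in LNCaP.

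All 4 tested conjugation genes were higher in the knockdown of LNCaP, while in C4-2B ENZR SULT1A1 alone was higher, and none passed. Such directions were common. Of all 13114 genes tested, 5245 were higher in both lines, and 3509 were lower in C4-2B ENZR and higher in LNCaP. These counts and directions were taken without subtraction of the median. SULT1A1, a phenol sulfotransferase, had 14.4 CPM in shMAOA and 10.2 CPM in shCon cells of C4-2B ENZR, and 18.0 and 14.0 CPM in those of LNCaP (limma adjusted p = 0.0977). SULT1A3, the sulfotransferase that prefers dopamine, and SULT1A4 had equal values in every library and are near-identical copies, so they count as 1 measurement (log2 ratio -0.10 in C4-2B ENZR and 0.25 in LNCaP). INMT, which methylates indoleamines such as tryptamine, had 2.40 and 2.79 CPM in shMAOA and shCon of C4-2B ENZR and 4.73 and 3.12 CPM in those of LNCaP. HNMT, which methylates histamine, was below 1 CPM in all libraries.

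Among 7 tested genes of aldehyde removal, ALDH1B1, a mitochondrial relative of ALDH2, had 160 CPM in shMAOA and 180 CPM in shCon cells of C4-2B ENZR, and 76.4 and 96.8 CPM in those of LNCaP. Its direction was thus opposite to that of ALDH2 in each line. ALDH1B1 did not pass (log2 -0.26, limma adjusted p = 0.230), and it passed after centring (limma adjusted p = 0.0298) or rescaling to the same sum (0.0213). ALDH3B2 had 27.2 and 25.8 CPM in shMAOA and shCon of C4-2B ENZR and 41.2 and 27.6 CPM in those of LNCaP (limma adjusted p = 0.159). ALDH9A1, which oxidises aminobutyraldehyde, had 140 and 142 CPM in shMAOA and shCon of C4-2B ENZR and 109 and 104 CPM in those of LNCaP.

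The 3 tested genes of polyamine turnover did not pass. SAT1, which acetylates spermidine and spermine, had 18.6 and 19.3 CPM in shMAOA and shCon of C4-2B ENZR and 104 and 69.9 CPM in those of LNCaP (limma adjusted p = 0.254). The spermine oxidase gene SMOX had 3.74 and 2.79 CPM in shMAOA and shCon of C4-2B ENZR and 11.4 and 8.18 CPM in those of LNCaP, and PAOX, which oxidises acetylated polyamines, had 7.69 and 8.13 CPM in the C4-2B ENZR pair and 12.8 and 13.0 CPM in the LNCaP pair.

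Transporters and cofactor genes gave no call. SLC22A3, a low-affinity transporter of monoamines across the plasma membrane, had 148 and 110 CPM in shMAOA and shCon of C4-2B ENZR and 119 and 101 CPM in those of LNCaP (limma adjusted p = 0.0932). The vesicular transporter SLC18A2 had 7.40 and 6.51 CPM in shMAOA and shCon of C4-2B ENZR and 4.05 and 3.33 CPM in those of LNCaP, whereas SLC6A2, the noradrenaline transporter, had at most 1 read. All 5 genes that make or recycle tetrahydrobiopterin, the cofactor of the aromatic amino acid hydroxylases, were expressed, with log2 ratios from -0.10 to 0.03 in C4-2B ENZR and from -0.07 to 0.29 in LNCaP. The 4 tested genes of riboflavin uptake and flavin synthesis, which supply the cofactor of MAOA, ranged from -0.21 to 0.34 in C4-2B ENZR and from -0.09 to 0.23 in LNCaP.

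Factors described as regulators of the MAOA promoter did not pass either. KLF11, described as an activator of MAOA that acts through GC-rich promoter sites, had 35.8 and 33.4 CPM in shMAOA and shCon of C4-2B ENZR and 37.8 and 30.8 CPM in those of LNCaP. CDCA7L, a repressor at the same promoter, had 115 and 112 CPM in shMAOA and shCon of C4-2B ENZR and 46.5 and 44.2 CPM in those of LNCaP. SP1 had 106 and 118 CPM in shMAOA and shCon of C4-2B ENZR and 136 and 101 CPM in those of LNCaP. The glucocorticoid receptor gene NR3C1 had 5 to 13 reads in each library. The limma adjusted p-values of the 6 tested regulators lay between 0.462 and 0.963.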

How the data were processed

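RNA sequencing of 4 libraries of human cell lines, 1 per group, was used as deposited. The hg19 build and the tools RSEM 1.2.15, Bowtie2 2.1.0 and edgeR are listed per the submitters' processing notes. Annotation, filters and strand setting were not given. The authors deposited CPM scaled by TMM for both lines. The LNCaP knockdown values add up to 1064500, which TMM scaling allows, so the deposited LNCaP table was read as a scaled signal and its values are printed as TMM-scaled CPM. Each column stepped in units of 1 read (100% of values, tolerance 0.01 read), which gave back the reads. In LNCaP the deposited scaling of shMAOA over shCon exceeded recomputed TMM by 0.12 (log2), and in C4-2B ENZR they were equal. The LNCaP excess is close to the median log2 ratio of 0.13 in that line. Every uncentred LNCaP ratio with the deposited scaling contains it.

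Log2 ratios used a pseudocount of 1, which understates the change of low genes. The 13114 genes whose mean CPM reached 1 in each table were tested with limma 3.58.1 (R 4.3.3), which took the ratios of the 2 lines as replicates (trended prior, Benjamini-Hochberg adjustment, threshold 0.05), and "rose", "fell" and "changed" refer to this test. Its p-values rest mainly on a variance shared by genes, not on the spread between lines. Counting intervals were exact conditional (Clopper-Pearson) 95% intervals, or Wald intervals for ratios of folds. Alternatives were other pseudocounts (0.1 and 5), filters and scalings, an untrended prior, a fit without line as a term, and count tests on recovered reads (edgeR 4.0.16 and DESeq2 1.42.0). The fits were also run on simulated data in which a changed gene had the same fold in both lines. Folds differed between lines here, so that run is no check of these results. Members, lists and tests were chosen with earlier results of these data known. Named genes were the members, list genes, and the 5 genes nearest in ratio to MAOA and to each member that rose. Some genes of the lists, markers and nearest genes were left out and are not reported here, and listed genes that are not named enter the counts.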

Additional observations from a re-analysis of the deposited data

Results flagged for a closer look

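AOC3 and 3 regulators of the MAOA promoter had counting intervals that excluded equality in opposite directions in the lines, lower in the knockdown of C4-2B ENZR and higher in that of LNCaP. The same held for 6.51% of all 13114 genes tested, and for 1 of 7 tested enzymes and 3 of 33 tested list genes. The difference between lines was not tested, since 4 libraries in 4 groups leave no residual degrees of freedom. The fold in LNCaP over that in C4-2B ENZR was 1.97 for AOC3, 1.48 for SP1, 1.29 for SP3 and 1.32 for SIRT1. With libraries rescaled to the same sum, the LNCaP log2 ratio was 0.32 for AOC3 and 0.22 for SP1, but 0.03 for SP3 and 0.02 for SIRT1.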

How the results depend on the processing

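MAOA, DDC and ALDH2 passed with the pseudocounts of 0.1 and 5, both other filters, both other scalings, the untrended prior and edgeR with either scaling. DDC and ALDH2 passed in DESeq2 too, where no member fell and MAOA was at -1.19 (adjusted p = 0.364, unadjusted 0.0365). The other 4 tested members passed in none of these. In limma without the replicate block of line, 0 genes rose, 0 fell and 0 were called (26 had an unadjusted p under 0.05), so 0 members rose or fell, with MAOA at -1.12 (adjusted p = 1). In that fit the spread between lines enters the error. AOC3 turned to a mean log2 ratio of -0.029 with libraries rescaled to the same sum. That scaling moved its ratio from 0.49 to 0.32 in LNCaP and from -0.36 to -0.38 in C4-2B ENZR.

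Genes called over both lines (554 rising and 195 falling, 749 in all) numbered 142, 57 and 199 without a filter on low values, 175, 128 and 303 in edgeR with recomputed TMM, and 132, 90 and 222 in DESeq2. With the untrended prior 326 rose and 456 were called. Rescaling to the same sum gave 351 rising and 653 falling, and centring 578 rising and 543 falling.

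The LNCaP ratio of MAOA became -1.80 with centring and -1.87 with rescaled libraries, by construction of these scalings. Genes 2-fold higher and lower in C4-2B ENZR (40 and 21) numbered 90 and 45 with a pseudocount of 0.1, 18 and 6 with 5, and 26 and 9 where the filter was raised to 5 CPM. In LNCaP (80 and 35) they numbered 163 and 76 with a pseudocount of 0.1, 40 and 6 with 5, 48 and 58 after centring, and 41 and 67 after rescaling, and 19 were lower under the filter of 5 CPM. Depth limits MAOB and the synthesis genes, which had too few reads to show any but a large change.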
